A study of Mus musculus with 3 samples.

Results

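The immunoglobulin heavy chain constant region genes decide the class of an antibody. The 8 genes of the locus that encode a heavy chain class, Ighm, Ighd, Ighg3, Ighg1, Ighg2b, Ighg2c, Ighe and Igha, were chosen by name, and all 8 were found among the 32285 genes of a single-cell RNA-seq matrix of sorted mouse spleen B cells. Their unique molecular identifier (UMI) counts were followed across B cell states and genotypes, and they were set beside the class of the heavy chain assembled for the same barcodes in a separate B cell receptor library. The cells came from 3 LDHA-deficient and 3 LDHA-sufficient mice, each marked with its own hashtag antibody, and all were run on 1 lane. LDHA is the lactate dehydrogenase subunit that turns pyruvate into lactate, and the series was made to ask what it does in the activation and proliferation of germinal centre (GC) B cells.

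The age, strain and immunization of the mice, how LDHA was lost (a Cre line, a promoter) and which part of Ldha was deleted were not stated in the labels read here. Cells were sorted as live B cells and by GL7, an activation and GC marker, and how the gates were pooled is not stated either, so shares of cell states may reflect the sort. A label field calls the cells of the hashtag and heavy chain libraries HSPCs, against the protocols of the same libraries. Of the B-lineage cells used below, 99.6% had a UMI of Cd79a, 97.5% of Cd79b and 97.7% of Ms4a1.

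In a B cell, the rearranged variable region is first transcribed together with Ighm and Ighd, and alternative processing of this 1 long transcript gives IgM and IgD. Class switch recombination later cuts out the DNA between the Ighm region and a downstream constant gene, so that the same variable region is joined to a gamma, epsilon or alpha gene. Before that, an unswitched cell can transcribe a downstream constant gene from its own promoter, which gives germline transcripts without a variable region. Mature follicular B cells carry IgM and IgD, marginal zone B cells carry much IgM and little IgD, GC B cells lose IgD, and plasma cells secrete large amounts of 1 class.

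The genes lie on mouse chromosome 12, on the minus strand, in the order Ighm, Ighd, Ighg3, Ighg1, Ighg2b, Ighg2c, Ighe and Igha from 5′ to 3′. In GRCm38 with the GENCODE M21 annotation, Ighm spans chr12:113418558-113422730, Ighd chr12:113406604-113416324, Ighg3 chr12:113356224-113361232 and Ighg1 chr12:113325240-113330523. Further downstream, Ighg2b spans chr12:113302965-113307933, Ighg2c chr12:113285325-113288932, Ighe chr12:113269260-113273248 and Igha chr12:113254830-113260236. The first 60 bases of the CH1 exon are shown for each gene because a 5′ library reads across the junction of the variable region and CH1, so these bases decide which constant gene a read or contig is given to. They are the 60 bases at the upper end of each span and are given in the sense of the gene. Capitals in the gamma genes mark the positions at which Ighg3, Ighg1, Ighg2b and Ighg2c are not all alike.
Ighm: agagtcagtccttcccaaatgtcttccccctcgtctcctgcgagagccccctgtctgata
Ighd: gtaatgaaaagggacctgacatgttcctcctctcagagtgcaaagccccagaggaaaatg
Ighg3: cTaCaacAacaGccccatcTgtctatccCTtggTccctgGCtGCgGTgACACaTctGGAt
Ighg1: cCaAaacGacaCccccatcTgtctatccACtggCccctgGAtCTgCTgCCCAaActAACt
Ighg2b: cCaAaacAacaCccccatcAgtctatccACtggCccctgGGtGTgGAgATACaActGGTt
Ighg2c: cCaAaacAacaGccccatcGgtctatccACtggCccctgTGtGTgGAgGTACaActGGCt
Ighe: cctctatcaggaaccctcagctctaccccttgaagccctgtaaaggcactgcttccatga
Igha: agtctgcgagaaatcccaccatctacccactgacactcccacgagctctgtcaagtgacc

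The gamma genes are near copies of each other. In the 60 bases shown, Ighg2b and Ighg2c differed at 5 positions, and Ighg3 and Ighg1, the least alike gamma pair, at 18. Over the 291 bases of CH1, identity between gamma genes ran between 78.4% and 88.3%, and how short reads were split among the 4 gamma genes was not tested. Ighm and Ighd differed from each other at 35 of the 60 bases.

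The protocol aimed at about 30000 cells, and the transcript matrix held 2836 barcodes. Of these, 1856 held a single hashtag, and 1849 of these passed the cell filter. A marker rule removed 46 non-B cells, and a mixed myeloid cluster of 30 cells was left out, which gave 1773 B-lineage cells. The LDHA-deficient mice had 267, 360 and 234 of these cells with a median depth of 3769.5 to 3787 UMIs, and the LDHA-sufficient mice had 313, 319 and 280 cells with a median of 3919 to 4375 UMIs. Clusters made without any immunoglobulin gene and without Ldha were named from marker lists as follicular (603 cells), marginal zone (234), GC (186), interferon-responding (170), activated (135) and plasma cell-like (17) B cells. A cluster of 286 cells led by Tmem108 and Pxdc1 and another of 142 cells led by S100a6 and Vim stayed unnamed. The LDHA-deficient mice had 10, 6 and 9 GC B-like and 1, 0 and 1 plasma cell-like cells, and the LDHA-sufficient mice had 64, 77 and 20 GC B-like and 8, 3 and 4 plasma cell-like cells. Ldha itself stood at 49.3, 48.7 and 68.9 CPM (UMIs of a gene per 1000000 UMIs of all genes) in the B-lineage cells of LDHA-deficient mice, against 236, 244 and 159 CPM in LDHA-sufficient mice. The groups did not overlap, and Ldha reads were still present in LDHA-deficient cells, where they may lie outside the deleted part.

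All 8 genes had UMIs in B-lineage cells, and their totals ran over a wide range. Ighm, the mu chain gene, had 38225 UMIs in 1763 of the 1773 cells, and Ighd, the delta chain gene, 7220 UMIs in 1588 cells. Igha, the alpha chain gene of mucosal antibodies, had 14068 UMIs in 782 cells, but 87.3% of them came from the 17 plasma cell-like cells, as did 34.6% of the Ighm UMIs. The gamma genes were sparse, with 646 UMIs of Ighg3 in 161 cells, 833 of Ighg2b in 148 cells, 253 of Ighg2c in 71 cells and 108 of Ighg1 in 24 cells. Ighe, the epsilon chain gene, had 7 UMIs in 7 cells, 6 of them in GC B-like cells of LDHA-sufficient mice. A few cells thus carry much of some sums below, and in sums fewer cells of a type and less RNA per cell cannot be told apart.

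Among the 7 B cell states other than plasma cell-like cells, Ighd was highest in follicular B-like cells and lowest in GC B-like cells. It averaged 1361 ± 120 CPM in follicular B-like cells (SD, n = 6 mice here and below), 1048 ± 90.0 CPM in the Tmem108 cluster and 975 ± 140 CPM in the S100a6 cluster. Interferon-responding cells had 806 ± 198 CPM, activated cells 777 ± 79.4 CPM, marginal zone B-like cells 541 ± 99.6 CPM and GC B-like cells 150 ± 53.5 CPM. Ighd was lower in GC B-like than in every other of these states in all 6 mice, and lower in GC B-like than in follicular B-like cells by a mean log2 ratio of -3.25 (SD 0.603). Marginal zone B-like cells stood below the follicular, interferon-responding, activated and both unnamed states in all 6 mice. The Tmem108 and S100a6 clusters did not differ beyond their spread, and neither did the interferon-responding and activated cells. In non-B cells Ighd averaged 74.4 ± 13.7 CPM (n = 4 mice), with 65.0 to 94.7 CPM in a mouse. GC B-like cells had 83.1 to 241 CPM, so their mean was above that of non-B cells, while the ranges overlapped. These levels are a description, since the states are clusters of the same cells.

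Ighm varied less than Ighd among the states other than plasma cells. Its mean lay between 2157 ± 199 CPM in the Tmem108 cluster and 3144 ± 499 CPM in interferon-responding cells, with follicular B-like cells at 2956 ± 248 and GC B-like cells at 2964 ± 784 CPM. No neighbours in the order of the means were ordered the same way in more than 4 of 6 mice. Follicular B-like cells were above marginal zone B-like and activated cells in all 6 mice, and so were interferon-responding cells. In the 1 mouse with at least 5 plasma cell-like cells, LDHA-sufficient mouse 1, Ighm reached 28550 CPM and Igha 43270 CPM in those cells.

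**Figure D1:**
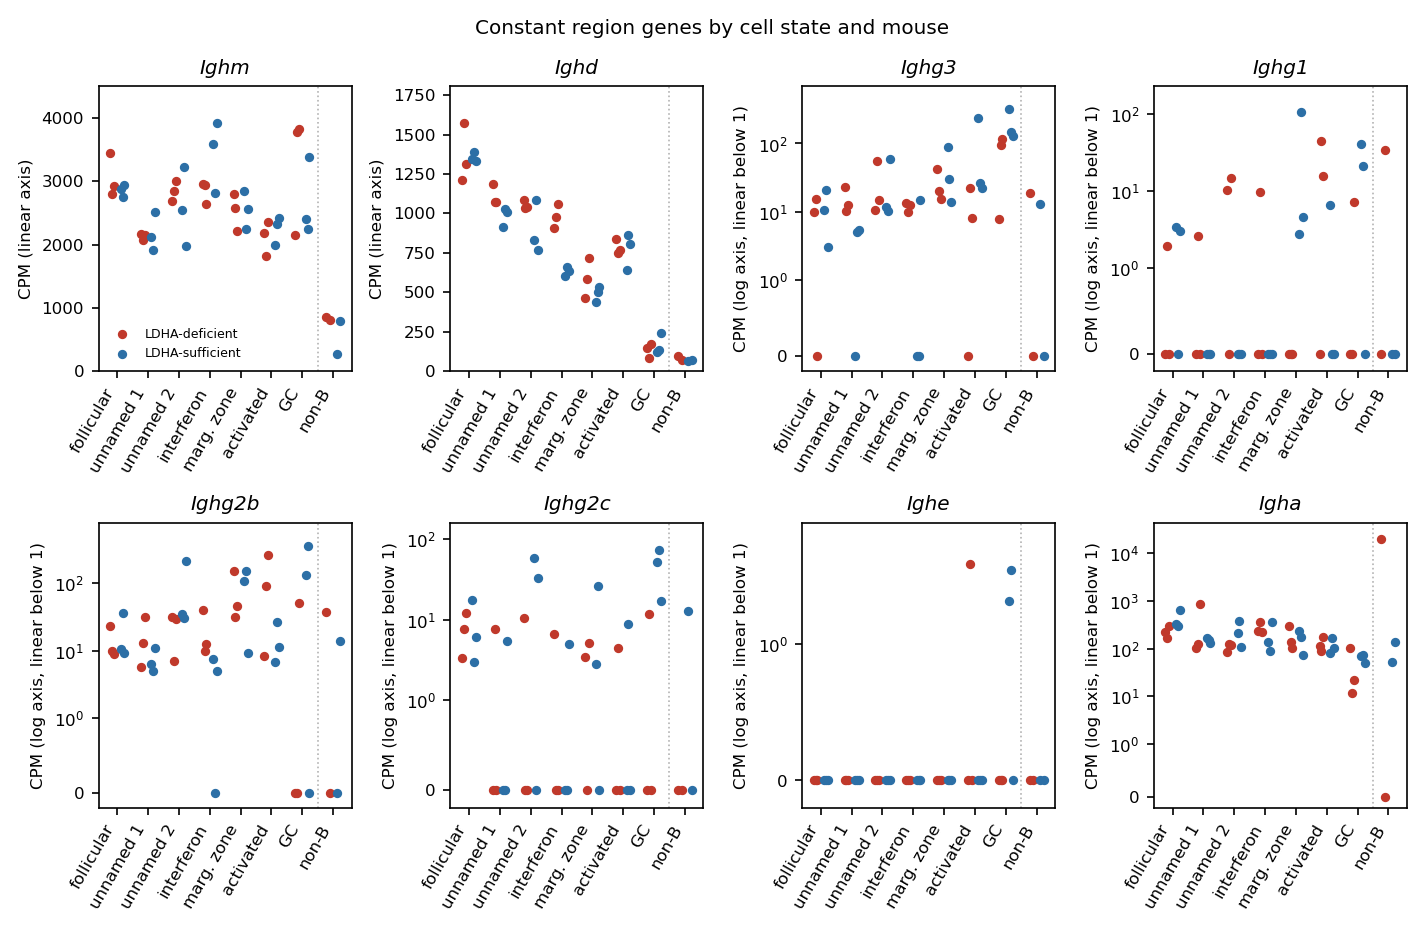
CPM of each constant region gene (y axis, linear for Ighm and Ighd, otherwise logarithmic and linear below 1) by cell state (x axis) in each mouse with at least 5 cells of the state, LDHA-deficient to the left of LDHA-sufficient, with non-B cells right of the dotted line. Plasma cell-like cells are not shown. Among the B cell states shown, Ighd was lowest in GC B-like cells in all 6 mice, whereas most gamma gene points away from GC B-like cells rest on few cells.

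Ighg3, Ighg2b and Ighg2c had their highest mean in GC B-like cells, with a spread close to the mean or above it. For Ighg3 this held within each genotype, but for Ighg2b and Ighg2c it did not hold in LDHA-deficient mice. There Ighg2b averaged 16.8 CPM in GC B-like, 121 CPM in activated and 77.2 CPM in marginal zone B-like cells, and Ighg2c 3.96 CPM in GC B-like and 7.72 CPM in follicular B-like cells. Over both genotypes, Ighg3 averaged 135 ± 101 CPM in GC B-like cells and was above activated cells in all 6 mice and above each of the other named states in 5 of 6. Next came activated cells with 52.5 ± 90.3 CPM and marginal zone B-like cells with 35.2 ± 28.8 CPM. Marginal zone B-like cells exceeded follicular B-like cells, at 9.98 ± 7.70 CPM, in all 6 mice. Ighg2b averaged 92.0 ± 144 CPM in GC B-like and 83.8 ± 63.4 CPM in marginal zone B-like cells, and the marginal zone level lay above follicular and interferon-responding cells in all 6 mice. In LDHA-sufficient mouse 3 it was 9.38 CPM against 9.27 CPM in follicular B-like cells, so the order there rests on few UMIs. Ighg2c averaged 25.8 ± 30.3 CPM in GC B-like cells and Ighg1 11.6 ± 16.6 CPM, where 3 of 6 mice had no Ighg1 UMI. Single cells held much of these sums: 33 of 35 Ighg3 UMIs in activated cells of LDHA-sufficient mouse 1, all 33 Ighg2b UMIs in activated cells of LDHA-deficient mouse 3, and 27 of 28 Ighg1 UMIs in marginal zone B-like cells of LDHA-sufficient mouse 2.

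Apart from plasma cell-like cells, Igha had its highest mean in follicular B-like cells, with 325 ± 165 CPM, and its lowest in GC B-like cells, with 55.1 ± 34.1 CPM. The top of this order differed between the means of the genotypes. In LDHA-deficient mice follicular B-like cells averaged 231 CPM, below interferon-responding cells at 274 CPM and the Tmem108 cluster at 369.6 CPM. The Tmem108 mean rested on 1 mouse, with an SD of 440 CPM, a median of 127 CPM and a maximum of 878 CPM. The follicular sums include 8 barcodes with an IgA chain found in many cells, described at the end. These 8 had a median of 35 Igha UMIs, where all follicular B-like cells together held 653. Whether the order of the states holds without them was not tested. The Tmem108 sums include 3 such barcodes, all of LDHA-deficient mouse 3. GC B-like cells were below follicular, marginal zone, activated and interferon-responding cells and the Tmem108 cluster in 6 of 6 mice, and below the S100a6 cluster in 5 of 6. In 4 mice with at least 5 non-B cells, 3 had 0 to 140 Igha CPM there and 1 had 20100 CPM, where 1 cell held 1027 UMIs.

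For each tested gene, the 3 genes outside the immunoglobulin segments with the most similar pattern were sought over 43 sums of a mouse and a state, as Pearson's r of log2(CPM + 10). The sums share mice, 1 lane and depth, so r is a description without a test. Ighd was most like Fcer2a (r = 0.94), which encodes the low-affinity IgE receptor CD23 of follicular B cells, Zfp318 (0.918), a nuclear protein needed for IgD expression in mice, and Serpinb1a (0.902). Ighm and Igha both followed genes high in plasma cells. Ighm was most like Fkbp11 (0.789), Txndc5 (0.779) and Sec11c (0.773), and Igha like Trp53inp1 (0.759), Fkbp11 (0.756) and Ckap4 (0.698). Only 1 of the 43 sums was of plasma cell-like cells, 8 cells of LDHA-sufficient mouse 1, with 28550 Ighm and 43270 Igha CPM. In the other sums Ighm reached at most 3920 CPM and Igha at most 878 CPM. Whether these r values hold without that 1 sum was not tested. Ighg3 was most like Nap1l1 (0.699), Mybl1 (0.686), a transcription factor gene of GC B cells, and Itgb1 (0.685). For the sparser genes r was lower. It was at most 0.611 for Ighg2c (Tmem131, then C2cd2l and Anxa2), 0.535 for Ighg1 (Tfdp1, then Arhgef12 and Mybl2) and 0.513 for Ighg2b (Ffar2, then Dnajc15 and Cdh17).

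The share of Ighd among the Ighm and Ighd UMIs of cells without a switched heavy chain needs no scaling between libraries. Its mean over 6 mice was 32.7% in the Tmem108 cluster and 31.8% ± 3.34 in follicular B-like cells. It was 26.7% in the S100a6 cluster and 26.3% in activated cells. Interferon-responding cells had 20.6% ± 5.89, marginal zone B-like cells 17.6% ± 3.94, and GC B-like cells 4.89% ± 1.65. Among plasma cell-like cells of the 1 mouse with enough of them, it was 0.158%.

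By genotype, the share was higher in LDHA-deficient mice where cell states were mixed. Over all B-lineage cells it was 16.7%, 29.2% and 24.6% in LDHA-deficient mice, against 9.66%, 11.2% and 14.6% in LDHA-sufficient mice. The groups did not overlap, and the means of 23.5% ± 6.32 and 11.8% ± 2.53 differed by 11.7 percentage points. An exact two-sided permutation over mice gave p = 0.1 (adjusted 0.333 over 10 cell sets), and no smaller p can be had with 3 mice a group. Without plasma cell-like cells the means were 26.1% in LDHA-deficient and 19.1% in LDHA-sufficient mice (exact p = 0.1). The numbers of GC B-like and plasma cell-like cells, given above, also differed between the genotypes. In non-GC B cells, where both are left out, the difference in the share was smaller. Whether the cell numbers account for it was not tested.

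Non-GC B cells had shares of 24.5%, 30.8% and 29.1% in LDHA-deficient mice, against 22.8%, 28.1% and 24.3% in LDHA-sufficient mice. The groups overlapped, and the difference of 3.07 points did not pass the exact permutation test (p = 0.2). It was 1.73 points without LDHA-deficient mouse 2, 1.92 points without LDHA-sufficient mouse 1 and 4.86 points without LDHA-deficient mouse 1. Follicular B-like cells had 26.0%, 36.0% and 31.2% in LDHA-deficient mice and 31.9%, 33.8% and 31.7% in LDHA-sufficient mice (exact p = 0.7). GC B-like cells had 6.51%, 2.15% and 4.32% in LDHA-deficient mice and 4.47%, 5.29% and 6.58% in LDHA-sufficient mice (exact p = 0.4). Within these states the genotypes overlapped.

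Interferon-responding cells were the only state of the 7 in which the shares did not overlap. They had 23.5%, 24.3% and 28.6% Ighd in LDHA-deficient mice, against 14.3%, 19.0% and 13.9% in LDHA-sufficient mice, a difference of 9.73 points (exact permutation p = 0.1, adjusted 0.333). The summed level of the 7 follicular markers in these cells was 2490 to 2739 CPM in LDHA-deficient and 1722 to 2772 CPM in LDHA-sufficient mice. That of the 7 marginal zone markers was 1241 to 1423 CPM in LDHA-deficient and 765.2 to 1929 CPM in LDHA-sufficient mice, and that of the 9 GC markers was 49.8 to 216.7 CPM in LDHA-deficient and 96.51 to 145 CPM in LDHA-sufficient mice. All 3 marker sums overlapped between the genotypes. In the heavy chain library, the share of IGHD among unswitched chains of these cells, given below, overlapped too.

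**Figure D2:**
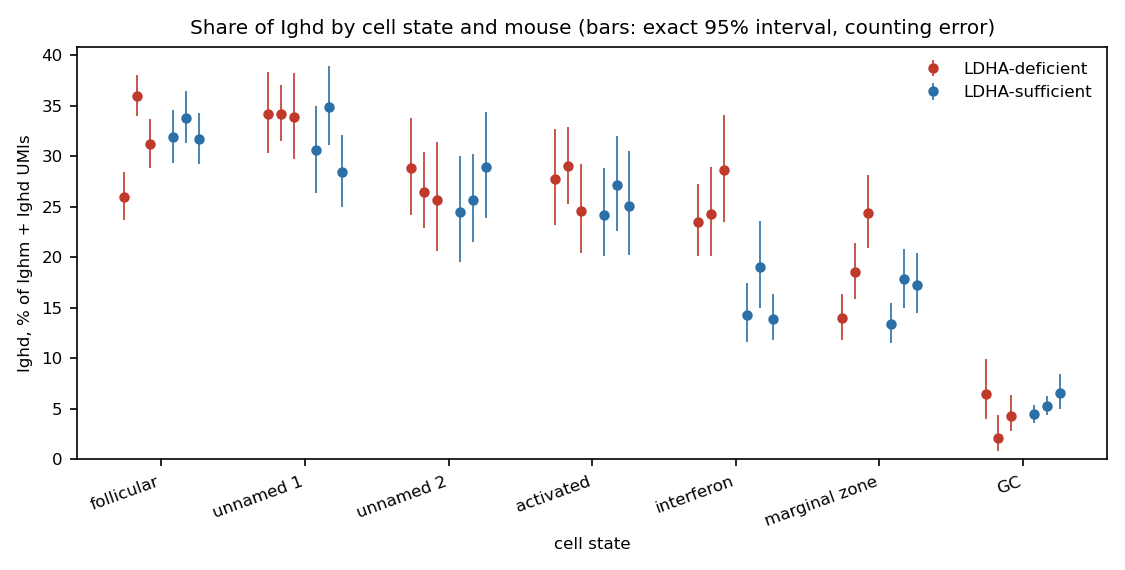
Share of Ighd among Ighm and Ighd UMIs of cells without a switched heavy chain (y axis, percent) by cell state (x axis), 1 point a mouse, LDHA-deficient to the left of LDHA-sufficient, with exact 95% intervals that cover counting error only. Apart from plasma cell-like cells, the shares were lowest in GC B-like cells, and the genotypes did not overlap in interferon-responding cells.

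UMIs were then summed per mouse and all genes were tested with edgeR's quasi-likelihood test, with Benjamini-Hochberg adjustment over all genes tested. Over all B-lineage cells, 104 of 9159 genes passed (1.14%), and 0 of the 7 constant region genes tested did so. An unadjusted p under 0.05 was reached by 4 of the 7, namely Ighm, Ighd, Ighg3 and Ighg2c, and by 17.0% of all genes. DESeq2 called 182 genes (2.01% of those with an adjusted p) and the same 4 members, with an adjusted p of 0.00583 for Ighd, 0.0425 for Ighm, 0.0447 for Ighg2c and 0.0499 for Ighg3. Without a filter beyond 1 UMI, edgeR called Ighm and Ighd, and 4.10% of all genes. The LDHA-deficient mice lay below all LDHA-sufficient mice for Ighm, Ighg3, Ighg2b and Ighg2c and above them for Ighd, where 10.2% of all genes were separated downward and 10.1% upward. Samples of 1 genotype are separate mice, run on the same lane.

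Ighd had 849, 1090 and 912 CPM in LDHA-deficient mice, against 468, 559 and 788 CPM in LDHA-sufficient mice, scaled by TMM as are the values below unless said otherwise. All LDHA-deficient mice were above all LDHA-sufficient mice. Its log2 fold change was 0.65 (SE 0.19), with an adjusted p of 0.149. Leaving out LDHA-sufficient mouse 3, the highest of its group, brought it to 0.88 with an adjusted p of 1.17e-06, in a fit where 14.7% of all genes passed against 1.14% with all mice. Leaving out any other mouse gave 0.50 to 0.73, none of which passed. Without plasma cell-like cells, where 1.11% of all genes passed and none of the constant region genes, it was 0.63 (adjusted p = 0.177), and the groups were still separate, with 867, 1100 and 922 CPM in LDHA-deficient and 496, 573 and 813 CPM in LDHA-sufficient mice.

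Ighm had 4160, 2640 and 2810 CPM in LDHA-deficient mice, against 4360, 4390 and 4580 CPM in LDHA-sufficient mice. LDHA-deficient mouse 1 was close to the LDHA-sufficient mice, and it held 1 plasma cell-like cell with 1767 Ighm UMIs. The log2 fold change was -0.47 (SE 0.17, adjusted p = 0.246), and -0.71 without that mouse (adjusted p = 0.0268), where 0.241% of all genes passed. Leaving out any other mouse gave -0.49 to -0.36, none of which passed. Without the 17 plasma cell-like cells the direction turned to 0.05 (adjusted p = 0.824), with 2810, 2670 and 2700 CPM in LDHA-deficient mice and 2520, 2350 and 3010 CPM in LDHA-sufficient mice, which overlapped.

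Igha also turned once plasma cell-like cells were left out. It had 194, 151 and 276 CPM in LDHA-deficient mice, against 3170, 145 and 4250 CPM in LDHA-sufficient mice, and the groups overlapped, with LDHA-sufficient mouse 2 the lowest of all. The log2 fold change was -3.61 (SE 1.34, adjusted p = 0.302), and -4.17 without LDHA-sufficient mouse 2 (adjusted p = 0.0294), where 0.506% of all genes passed. Without LDHA-sufficient mouse 3 it was -3.02 (adjusted p = 0.328). Without plasma cell-like cells it turned to 0.16 (adjusted p = 0.868), with 199, 152 and 279 CPM in LDHA-deficient and 150, 148 and 267 CPM in LDHA-sufficient mice.

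The gamma genes were all lower in value in LDHA-deficient mice. Ighg3, whose antibodies arise early in responses to polysaccharides, had 18.3, 23.8 and 21.5 CPM in LDHA-deficient mice, against 155, 76.5 and 34.1 CPM in LDHA-sufficient mice. The groups were separate, with a log2 fold change of -2.09 (SE 0.70, adjusted p = 0.261), and -2.44 with an adjusted p of 0.041 once LDHA-sufficient mouse 3 was left out, where 14.7% of all genes passed. Without LDHA-sufficient mouse 1, the highest, it was -1.42 (adjusted p = 0.169).

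Ighg2c, the gamma gene favoured by interferon-gamma in C57BL/6-type mice, had 3.18, 5.49 and 4.47 CPM in LDHA-deficient mice, against 27.3, 75.1 and 8.71 CPM in LDHA-sufficient mice. The groups did not overlap (log2 fold change -3.09, SE 1.12, adjusted p = 0.286). Without LDHA-sufficient mouse 2, the highest, the value was -2.07, and without LDHA-sufficient mouse 3 it was -3.49. Without plasma cell-like cells, 1 of which held 80 of its UMIs, the log2 fold change was -2.50 (SE 0.57, adjusted p = 0.0862).

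Ighg2b had 49.3, 24.4 and 53.7 CPM in LDHA-deficient mice, against 74.2, 194 and 62.5 CPM in LDHA-sufficient mice, which did not overlap (log2 fold change -1.43, SE 0.65, adjusted p = 0.373). Leaving out 1 mouse gave -1.70 to -0.73, the smallest size without LDHA-sufficient mouse 2. Without plasma cell-like cells LDHA-sufficient mouse 3 fell between the LDHA-deficient mice at 26.3 CPM. Ighg1, the gamma gene favoured by interleukin-4, had 0.796, 7.92 and 3.58 CPM in LDHA-deficient mice, against 17.4, 22.7 and 1.45 CPM in LDHA-sufficient mice. The Ighg1 groups overlapped (log2 fold change -1.73, adjusted p = 0.460). Without LDHA-sufficient mouse 3, the lowest of its group, the value was -2.16 (adjusted p = 0.000689), in a fit where 14.7% of all genes passed. Leaving out any other mouse gave -2.77, for LDHA-deficient mouse 2, to -1.24, for LDHA-sufficient mouse 2, none of which passed. Ighe had 0, 1 and 0 UMIs in LDHA-deficient and 2, 4 and 0 UMIs in LDHA-sufficient mice and was too sparse to be tested.

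**Figure D3:**
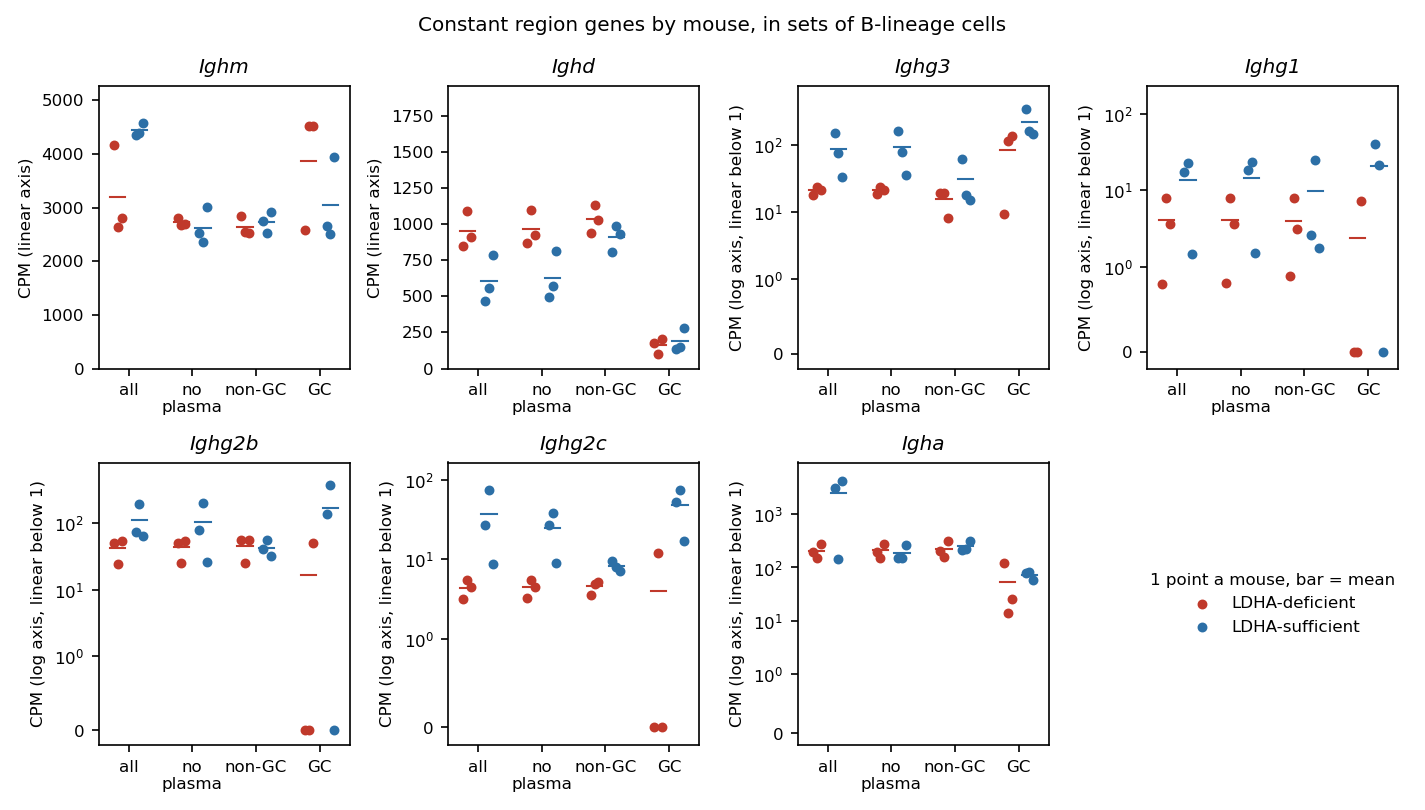
CPM of 7 constant region genes (y axis, linear for Ighm and Ighd, otherwise logarithmic and linear below 1; TMM-scaled where the gene was tested, otherwise per plain total) in all B-lineage cells, in these without plasma cell-like cells, in non-GC B cells and in GC B-like cells, 1 point a mouse with the mean as a bar, LDHA-deficient to the left of LDHA-sufficient. The gap in Ighm over all B-lineage cells is gone without plasma cell-like cells. Igha overlapped over all B-lineage cells, and its lower mean in LDHA-deficient mice is gone without plasma cell-like cells. The difference in Ighd is smaller in non-GC B cells.

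Where GC B-like and plasma cell-like cells were left out, 1570 non-GC B cells remained, and 9 of 8476 genes passed (0.106%). Of the 5 constant region genes tested, 0 passed by edgeR and 0 by DESeq2, which called 1 gene in all (0.00886%). Ighd alone had an unadjusted p under 0.05, as had 5.36% of all genes. No member was separated between the genotypes, where 5.44% of genes lay lower and 5.00% higher without overlap. Ighd had 936, 1130 and 1030 CPM in LDHA-deficient and 808, 985 and 933 CPM in LDHA-sufficient mice (log2 fold change 0.19, SE 0.07, unadjusted p = 0.0137, adjusted p = 0.8 by edgeR). Ighg3 had 19.7, 19.7 and 8.25 CPM in LDHA-deficient and 61.5, 18.3 and 15.5 CPM in LDHA-sufficient mice (log2 fold change -0.96, SE 0.76, adjusted p = 0.954). With 1 mouse left out the Ighg3 value lay between -1.28 and -0.04. The log2 fold changes of Ighm, Ighg2b and Igha were -0.05, 0.03 and -0.17. With clusters taken at Leiden resolution 0.4, Ighg2b turned to -1.10 and passed (adjusted p = 0.02 by edgeR), as did 0.131% of all genes. Ighg1, Ighg2c and Ighe fell below the expression filter, Ighg2c with 17 UMIs in LDHA-deficient and 28 UMIs in LDHA-sufficient mice.

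GC B-like cells were few in LDHA-deficient mice, which limits this comparison. Of 3440 genes 0 passed by edgeR (0%), 228 had an unadjusted p under 0.05 (6.63%), and DESeq2 called 1 gene (0.0103%). Of the 4 constant region genes tested, 0 were called by edgeR or DESeq2, and 0 had an unadjusted p under 0.05. Ighg3 had 9.49, 114 and 136 CPM in LDHA-deficient mice, against 349, 166 and 148 CPM in LDHA-sufficient mice. The groups were separate, as were 5.99% of all genes in that direction, with a log2 fold change of -1.43 (SE 0.63, adjusted p = 0.739 by edgeR). Without a filter beyond 1 UMI, edgeR called 2 constant region genes, Ighg3 among them at -1.55 (adjusted p = 0.0052), and 0.337% of all genes. The direction rested on the hashtag rule. With a simpler ratio rule for hashtags, LDHA-deficient mouse 2 had 142 Ighg3 UMIs in 8 GC B-like cells, 2 of them doublets under the first rule, and the log2 fold change was 0.64 (adjusted p = 0.952). Those of Ighm and Ighd changed sign too under that rule. Ighm had 2590, 4520 and 4520 CPM in LDHA-deficient and 2660, 2510 and 3950 CPM in LDHA-sufficient mice (log2 fold change 0.36, SE 0.24, adjusted p = 0.819), which overlapped. The log2 fold changes of Ighd and Igha were -0.05 and -0.41. Of the untested genes, Ighg2b had 0, 0 and 7 UMIs in LDHA-deficient mice, against 119, 358 and 0 UMIs in LDHA-sufficient mice. Ighg2c had 0, 1 and 0 UMIs in LDHA-deficient mice, against 46, 72 and 4 UMIs, and Ighg1 0, 0 and 1 against 36, 21 and 0 UMIs in LDHA-sufficient mice.

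In follicular B-like cells 6 of 5174 genes passed (0.116%), and 0 of the 3 constant region genes tested, Ighm, Ighd and Igha. Of these 3, 0 had an unadjusted p under 0.05, as had 4.68% of all genes, and 0 were called by DESeq2, which called 0.0104% of genes. Ighd averaged 1470 ± 217 CPM in LDHA-deficient and 1470 ± 41.3 CPM in LDHA-sufficient mice, and the log2 fold change of Ighm was 0.07. Igha had the largest value, a log2 fold change of -0.92 (SE 0.44, adjusted p = 0.995) with 240, 185 and 319 CPM in LDHA-deficient and 348, 318 and 704 CPM in LDHA-sufficient mice. Its sign changed, to 0.12, once barcodes with an IgA chain found in many cells, described at the end, were left out. In marginal zone B-like cells 1 of 3848 genes passed (0.0260%), and 0 of 4 constant region genes by edgeR. Of the 4, 0 had an unadjusted p under 0.05, against 4.57% of all genes, and DESeq2 called 0 of them and 0.0110% of genes. Ighg2b had 173, 35.6 and 50.8 CPM there in LDHA-deficient and 121, 167 and 11 CPM in LDHA-sufficient mice (log2 fold change -0.22, SE 0.99), and 39 of 44 UMIs of LDHA-deficient mouse 1 came from 1 cell. With the ratio hashtag rule its log2 fold change was -1.61 (adjusted p = 0.00739), and 0.186% of all genes passed.

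Beside the members stood 39 other genes of class switching and antibody expression, taken from a list. By edgeR 0 of them passed in each of the 5 cell sets, while 8, 4, 1, 5 and 1 had an unadjusted p under 0.05 in all B-lineage, non-GC, GC B-like, follicular and marginal zone B-like cells, where the shares of all genes were 17.0%, 5.36%, 6.63%, 4.68% and 4.57%. Over all B-lineage cells 38 were tested, 22 with a log2 fold change above and 16 below 0, and their median was 0.07 against 0.02 for all genes. The lowest p belonged to Zfp318, with 271 ± 34.2 CPM in LDHA-deficient and 160 ± 41.1 CPM in LDHA-sufficient mice (log2 fold change 0.77, adjusted p = 0.0548). Pigr, the polymeric immunoglobulin receptor, had 10.6 ± 1.32 CPM in LDHA-deficient and 3.38 ± 1.36 CPM in LDHA-sufficient mice (1.59, adjusted p = 0.0650). Jchain, which joins IgM and IgA into polymers, had 406 ± 161 CPM in LDHA-deficient and 2070 ± 847 CPM in LDHA-sufficient mice (-2.35, adjusted p = 0.161), and Pou2af1, a B cell coactivator gene, had a log2 fold change of -0.37 (adjusted p = 0.178).
In non-GC B cells 37 were tested, with 18 above and 19 below 0 and a median of -0.01. The lowest p values there belonged to Pigr (1.40), Cd79b (-0.17), Zfp318 (0.25) and Iglc1 (-0.18), with adjusted p between 0.531 and 0.913. In GC B-like cells 23 were tested, 9 above and 14 below 0, led by Il21r (-0.82), Rif1 (0.43), Pou2f2 (-0.49) and Igkc (-0.42). In follicular B-like cells 28 were tested, 6 above and 22 below 0, with a median of -0.11 against -0.01 for all genes, led by Jchain (-0.47), Cd79b (-0.25), Msh6 (-1.04) and Fcer2a (-0.21). In marginal zone B-like cells 22 were tested, 12 above and 10 below 0, led by Igkc (0.23), Iglc1 (-0.26), Zfp318 (0.29) and Cd40 (0.31). The list did not shift to 1 side in all 5 sets.

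The heavy chain library gave 2241 contigs of 2014 barcodes, all productive, and 227 barcodes had 2 contigs. By class there were 1369 IGHM, 565 IGHD, 21 IGHG3, 2 IGHG1, 28 IGHG2B, 12 IGHG2C and 242 IGHA contigs and 0 IGHE contigs. The constant part of every contig with at least 60 bases after the J segment matched best the CH1 start, shown above, of the gene named by its class. A class was at hand for 1146 of the 1773 B-lineage cells (64.6%). Of these, 811 were IGHM, 266 IGHD, 17 IGHG2B, 11 IGHG3, 8 IGHG2C, 2 IGHG1 and 31 IGHA. No cell was IGHE, which allows a share of up to 0.262%.

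The class of the chain and the leading constant gene of the transcript library agreed in 1127 of 1145 cells with at least 2 constant gene UMIs (98.4%, exact 95% interval 97.5 to 99.1%), counting Ighm and Ighd as 1 unswitched class. Among switched chains the class agreed in 56 of 69 cells (81.2%, 69.9 to 89.6%). All 2 IGHG1 cells agreed, as did 10 of 11 IGHG3, 15 of 17 IGHG2B, 5 of 8 IGHG2C and 24 of 31 IGHA cells. Most of the switched cells that disagreed, 11 of 13, were led by Ighm or Ighd. Only 5 unswitched cells were led by a gamma gene, 4 by Ighg2b and 1 by Ighg3, and 3 of the 5 had 2 contigs. Within the unswitched class, the IGHD chain and the leading gene often differed: Ighm led in 208 of 266 IGHD cells, Ighd in 41, and the 2 were tied in 16.

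**Figure D4:**
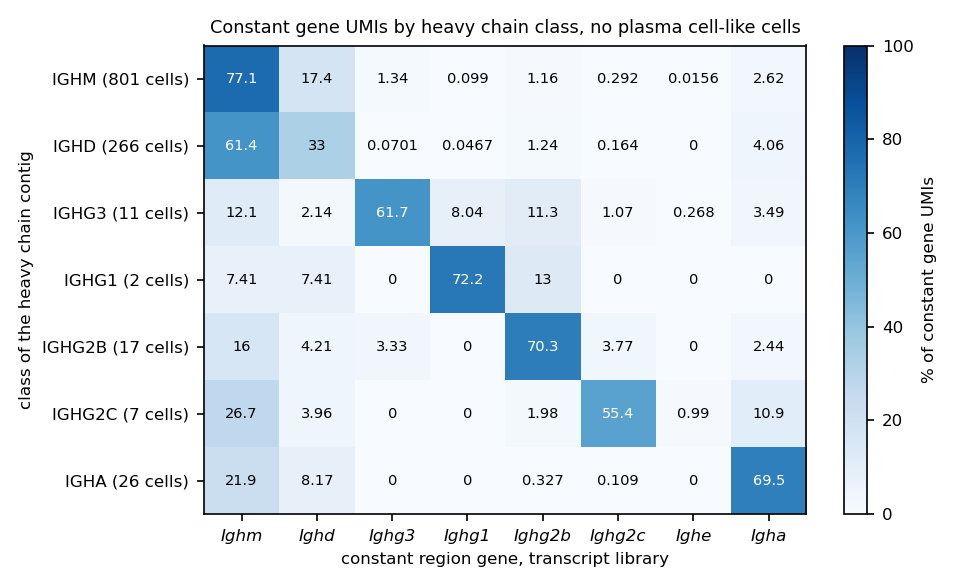
Make-up of the constant region UMIs (each cell of the grid gives a percent of the UMIs of its line) by gene of the transcript library (x axis) and by the class of the heavy chain contig (y axis), without plasma cell-like cells. In IGHG3, IGHG1, IGHG2B, IGHG2C and IGHA cells the gene of the chain held 55.4% to 72.2% of the UMIs, whereas in IGHD cells Ighm held 61.4% and Ighd 33.0%.

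IgG chains were found mostly in LDHA-sufficient mice. They made up 1 of 160, 1 of 234 and 0 of 137 cells with a class in LDHA-deficient mice, against 14 of 205, 17 of 209 and 5 of 201 in LDHA-sufficient mice. As shares these were 0.625%, 0.427% and 0%, against 6.83%, 8.13% and 2.49%. The groups did not overlap, and the means were 0.351% ± 0.319 in LDHA-deficient and 5.82% ± 2.96 in LDHA-sufficient mice (exact two-sided permutation p = 0.1, adjusted 0.133 over 8 shares). Both IgG cells of LDHA-deficient mice were IGHG2B cells outside the GC.

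Among GC B-like cells, 0 of 6, 0 of 4 and 0 of 7 cells carried IgG in LDHA-deficient mice, against 11 of 33, 15 of 55 and 1 of 14 in LDHA-sufficient mice. A count of 0 in so few cells allows shares of up to 42.9% to 75% in the LDHA-deficient mice, above the 33.3%, 27.3% and 7.14% of the LDHA-sufficient mice, so a difference was not detectable at this depth (exact p = 0.1). With the ratio hashtag rule LDHA-deficient mouse 2 had 2 IgG cells of 6, and the difference was -10.8 points (exact p = 0.4) in place of -22.6 points. In non-GC B cells the IgG shares averaged 0.363% in LDHA-deficient and 1.56% in LDHA-sufficient mice (exact p = 0.1). All switched classes together averaged 2.62% ± 0.976 in LDHA-deficient and 9.09% ± 1.45 in LDHA-sufficient mice (exact p = 0.1).

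**Figure D5:**
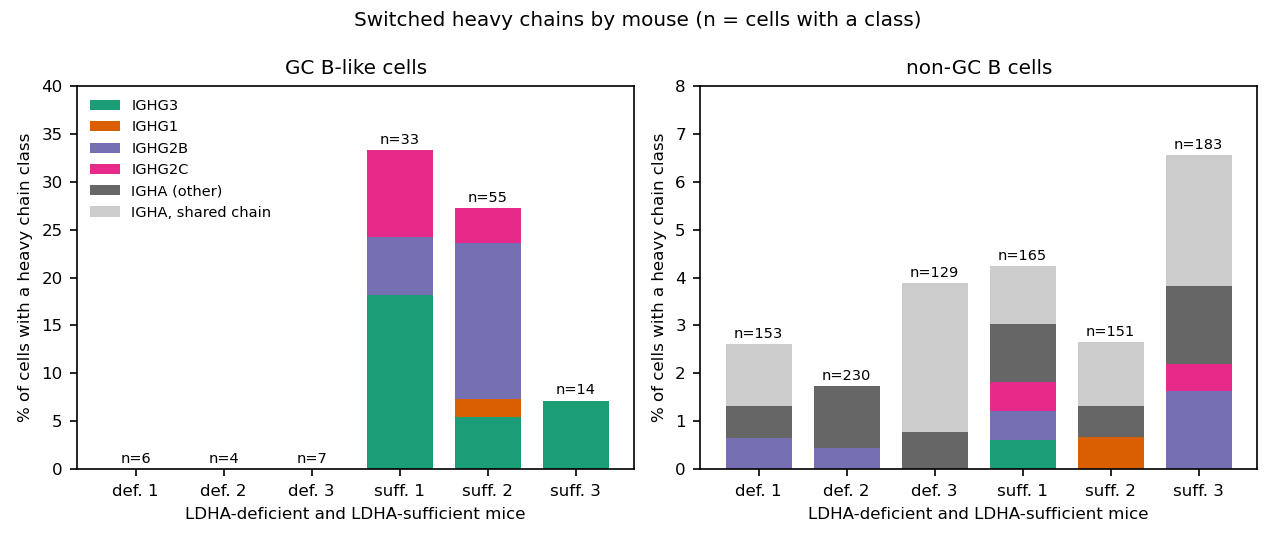
Share of cells with a switched heavy chain (y axis, percent of cells with a class) by mouse (x axis, 3 LDHA-deficient then 3 LDHA-sufficient) in GC B-like cells (left) and non-GC B cells (right), stacked by class, with the number of cells with a class above each bar. No switched chain was found among 6, 4 and 7 GC B-like cells of LDHA-deficient mice, and the IGHA chains of non-GC B cells include a chain shared by many barcodes (light grey).

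The share of IGHD among unswitched chains was higher in LDHA-deficient mice, as was that of Ighd among transcripts. It was 28.8%, 30.4% and 28.0% in LDHA-deficient mice, against 21.2%, 20.1% and 19.9% in LDHA-sufficient mice, without overlap (29.1% ± 1.22 and 20.4% ± 0.699, exact permutation p = 0.1, adjusted 0.133). In non-GC B cells it was 30.2%, 31.0% and 29.8% in LDHA-deficient and 23.4%, 25.9% and 21.6% in LDHA-sufficient mice, again without overlap (exact p = 0.1). Follicular B-like cells averaged 33.6% in LDHA-deficient and 31.4% in LDHA-sufficient mice (exact p = 0.6). Interferon-responding cells, with 12 to 33 unswitched chains a mouse, had 13.6%, 12.5% and 25.0% in LDHA-deficient mice. In LDHA-sufficient mice they had 0%, 16.7% and 9.09%, so the genotypes overlapped here, unlike in the Ighd share of UMIs. By state, and leaving out plasma cell-like cells (0 of 10), the share ranged between 35.1% in the Tmem108 cluster, 12.3% in marginal zone B-like cells, 11.1% in interferon-responding cells and 2.17% (2 of 92 cells) in GC B-like cells.

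IgG cells were mostly of the GC state, whose definition used no immunoglobulin gene. Of 38 IgG cells 27 were GC B-like (71.1%, exact interval 54.1 to 84.6%), against 92 of 1077 unswitched cells (8.54%, 6.94 to 10.4%). These intervals cover counting error only, and cells of 1 mouse share their source. In the 3 LDHA-sufficient mice with enough IgG cells, 78.6%, 88.2% and 20.0% of IgG cells were GC B-like, against 12%, 21.2% and 6.99% of unswitched cells. The IgG share was higher in 3 of 3 mice, by 48.9 points on average (SD 31.1), and the exact sign-flip test gave p = 0.25, the smallest possible with 3 mice. Over all switched cells of all 6 mice the difference was 13.8 points (exact p = 0.5). It was 5.84 points without LDHA-sufficient mouse 2 and 8.53 points without LDHA-sufficient mouse 1, and no switched cell of the LDHA-deficient mice was GC B-like.

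Switched chains also carried more differences from their germline V gene, a measure of somatic hypermutation. The excess of switched over unswitched cells amounted to 1.32, 1.23 and 1.39 percentage points of V bases in LDHA-deficient mice and 1.53, 1.29 and 2.18 in LDHA-sufficient mice. It averaged 1.49 (SD 0.354), higher in 6 of 6 mice, with an exact two-sided sign-flip p = 0.0312, the smallest possible. The value of the LDHA-deficient mice rests partly on the shared IgA chain. Without it 4 mice could be compared, with a mean of 1.74 (exact p = 0.125), and with IgG alone 3 LDHA-sufficient mice, with 1.73, 1.42 and 3.46 (exact p = 0.25). By class, V differences averaged 0.125% in IGHM and 0.0141% in IGHD cells. They averaged 2.16% in IGHG3, 2.04% in IGHG2B, 1.66% in IGHG2C and 1.19% in IGHG1 cells. Within GC B-like cells, 25 of 27 IgG cells had at least 1 difference (mean 2.04%), as had 50 of 90 IGHM cells (mean 0.629%).

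The 38 IgG cells belonged to 32 clones, and 3 clones held more than 1 IgG cell, at most 5. In 4 clones, which held 9 of the IgG cells, 7 unswitched cells were also found, so switched and unswitched cells were seen in the same clone. A single clone held more than 1 IgG class, and no clone with IgG spanned mice. Apart from the shared chain, 16 IgA cells made up 12 clones.

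Some unswitched cells carried UMIs of a gamma gene as well. At least 5 UMIs of 1 gamma gene were found in 27 of 1077 cells with an IGHM or IGHD chain (2.51%, exact interval 1.66 to 3.63%). They were 19 of 92 GC B-like cells (20.7%, 12.9 to 30.4%), 4 of 155 marginal zone, 3 of 84 activated and 1 of 96 S100a6 cluster cells, against 0 of 329 follicular, 0 of 194 Tmem108 cluster and 0 of 117 interferon-responding cells. The gene was Ighg3 in 15 cells, Ighg2b in 13, Ighg2c in 2 and Ighg1 in 1, with more than 1 gene in some. By mouse they were 0, 2 and 4 cells in LDHA-deficient mice and 6, 14 and 1 in LDHA-sufficient mice. These cells had a median of 41 Ighm UMIs (4 to 150), 10 of the 27 had V differences, and 5 had 2 contigs.

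Depth differed between the states, and so did the chance to see a UMI. The median was 12146 UMIs in unswitched GC B-like and 3393 in follicular B-like cells, and 4266 in non-B cells. An Ighg3 UMI was seen in 43.5% of unswitched GC B-like and 3.65% of follicular B-like cells, against 4.44% of non-B cells. With each cell thinned to 1000 UMIs, the shares were 9.78%, 1.52% and 2.22%. For Ighg2b they were 19.6%, 4.86% and 6.67%, and 7.61%, 2.13% and 0% after thinning. Before thinning, the follicular shares were near those of non-B cells, and the GC shares were higher in value. After thinning, the exact intervals of GC B-like and non-B cells overlapped. They were 4.57 to 17.8% against 0.0562 to 11.8% for Ighg3, and 3.11 to 15.1% against 0 to 7.87% for Ighg2b. Against non-B cells, the GC shares at equal depth were thus higher in value only. Against follicular B-like cells, the thinned Ighg3 intervals did not overlap, with 0.495 to 3.51% in follicular B-like cells. Those for Ighg2b did, with 0.86 to 4.33% in follicular B-like cells. All these intervals cover counting error only. For Igha, unswitched cells of the states other than plasma cell-like cells (0 of 10) ranged between 8.7% and 16.5% after thinning. Non-B cells had 13.3% (exact interval 5.05 to 26.8%), and the states lay within that interval. The source of Igha UMIs in unswitched cells was not tested.

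The plasma cell-like cells each gave most of their constant UMIs to 1 gene. Ighm led in 11 of 17 cells, 2 of LDHA-deficient and 9 of LDHA-sufficient mice, with 156 to 3482 UMIs (median 1029) that made up 1.85% to 23.7% of the UMIs of a cell. Of these, 10 had an IGHM contig and 1 had none. Igha led in 5 cells, all of LDHA-sufficient mice, with 1592 to 3551 UMIs and an IGHA contig in each. The last, of LDHA-sufficient mouse 2, was led by Ighg2c with 80 UMIs and an IGHG2C contig. No plasma cell-like cell was led by Ighg3, Ighg1, Ighg2b or Ighe.

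A single IgA chain stood apart from all others. It used IGHV1-42 with the junction of 48 bases given here because it marks the barcodes concerned.
Shared IgA junction: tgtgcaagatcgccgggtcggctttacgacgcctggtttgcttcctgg
It accounted for 193 of the 242 IGHA contigs, and its V region was 98.98% identical to germline. Among B-lineage cells 15 barcodes carried it, 8 follicular B-like, 4 marginal zone B-like and 3 of the Tmem108 cluster, and none was a GC B-like, activated, interferon-responding or plasma cell-like cell. It made up 15 of the 31 IGHA cells above. Barcodes with it had a median of 31 to 41 Igha UMIs, and those without it 0 to 1, depending on the state. Without these barcodes the switched share averaged 1.24% in LDHA-deficient and 7.72% in LDHA-sufficient mice, and the order of the genotypes was as before.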

How the data were processed

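Spleen B cells of 3 LDHA-deficient and 3 LDHA-sufficient mice were run on 1 lane, and 3 libraries (transcripts, hashtags, heavy chains) were deposited. UMI counts per gene were made by Cell Ranger 6.0.2, per the file headers; the submitters' processing notes name Cell Ranger 6.0.0, Seurat 4.2.1 and the build mm10 without a role. The counter of the hashtag UMI counts was not stated. V identity is a fraction that the authors deposited with each contig, and the tools behind it, the class and the clone were not stated.
HTODemux of Seurat 5.3.0, at a positive quantile of 0.99, assigned cells to mice, and 820 hashtag doublets and 155 barcodes negative for hashtags were left out. Cells with under 500 genes, under 1000 UMIs or over 10% mitochondrial UMIs were removed. Leiden clusters (scanpy 1.11.5, resolution 0.8) were made without immunoglobulin, T cell receptor, mitochondrial, ribosomal and sex-linked genes and without Ldha. A cluster was named where at least 3 markers, and at least 50% of a list, were 1.5 times higher than in the rest and in at least 10% of its cells. Cells with at least 3 markers of other cell types and under 10 B-lineage marker UMIs were set apart as non-B, a rule chosen after seeing the data. UMIs were summed per mouse (at least 20 cells, 5 for GC B-like) and tested with edgeR 4.0.16 (quasi-likelihood, TMM, filterByExpr, robust; R 4.3.3) with Benjamini-Hochberg adjustment over all genes at 0.05, with DESeq2 1.42.0 as an alternative. The edgeR step was tested on simulated data. The mouse is the replicate, and summed depth was 1103194 to 1704420 UMIs in LDHA-deficient and 1442359 to 2203123 in LDHA-sufficient mice. Shares were compared by exact permutation over mice (scipy 1.17.1). Intervals are exact Clopper-Pearson 95% intervals and, like the limit of 3 counts behind a 0, cover counting error only. With 2 contigs in a barcode, the 1 with the most UMIs gave the class. CH1 positions and bases come from the annotation and transcripts of GENCODE M21.
The members and lists were chosen with earlier results of these data known. Named were the 8 constant region genes, of 39 other genes those past the threshold and otherwise the 4 with the smallest p in each comparison, and for each constant gene that passed the filter the 3 genes with the highest correlation. Values of some marker genes are not reported here.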

Additional observations from a re-analysis of the deposited data

Results flagged for a closer look

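The shared IgA chain appeared mainly in barcodes that the comparisons do not use. It was carried by 132 of 155 barcodes negative for hashtags (85.2%), 22 of 820 hashtag doublets (2.68%), 21 of 30 barcodes of the mixed myeloid cluster (70.0%) and 1 of 46 non-B cells. Among hashtag-negative barcodes the median was 35 Igha UMIs with the chain and 0 without it.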

How the results depend on the processing

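Over all B-lineage cells the count of constant region genes that passed was 0; it was 4 with DESeq2, 2 without a filter beyond 1 UMI, where 4.10% of all genes passed (Ighm -0.5, adjusted p = 3.34e-06, and Ighd 0.63, adjusted p = 2.86e-06, both by edgeR) and 0 to 3 with 1 mouse left out, with 3 when this was LDHA-sufficient mouse 3 (14.7% of all genes). In non-GC B cells it was 0, and 1 at Leiden resolution 0.4, where Ighg2b had a log2 fold change of -1.1 (adjusted p = 0.02, edgeR), as 0.131% of all genes passed. In GC B-like cells it was 0, and 2 without the filter (0.337% of all genes). In marginal zone B-like cells it was 0, and 1 with the ratio hashtag rule (0.186% of all genes). Of 127 log2 fold changes at other settings, 114 kept their direction and 13 did not. Those that turned were Ighg2b in non-GC B cells at Leiden resolution 0.4, given above, and, without plasma cell-like cells, Ighm (0.0534) and Igha (0.163) over all B-lineage cells. With the ratio hashtag rule they were Igha in non-GC B cells (0.00365), Ighm (-0.0398), Ighd (0.105) and Ighg3 (0.636) in GC B-like cells, and Ighm in follicular (-0.0123) and marginal zone B-like cells (0.0505). In follicular B-like cells Ighd turned with DESeq2 (-0.00244), without the filter (-0.00162) and without the shared IgA chain (-0.00333), as did Igha without that chain (0.118). With 1 mouse left out, log2 fold changes ran over both signs for Ighg2b (-0.178 to 0.368) and Igha (-0.473 to 0.0525) in non-GC B cells, Ighd (-0.312 to 0.239) and Igha (-1.86 to 0.0112) in GC B-like cells, Ighd in follicular B-like cells (-0.128 to 0.0957), and Ighm (-0.137 to 0.0762), Ighg2b (-1.32 to 0.244) and Igha (-0.484 to 0.54) in marginal zone B-like cells. The share of IGHD among unswitched follicular chains differed by -0.127 to 3.84 points. The excess of V differences was 1.35 to 1.54 points with 1 mouse left out (exact p = 0.0625, the smallest with 5 mice), 1.74 without the shared IgA chain and 2.2 for IgG alone. The share of unswitched GC B-like cells with an Ighg3 UMI was 43.5%, and 9.78% after thinning to 1000 UMIs. The causes were not tested. No paired analysis was possible because hashtag numbers pair no mice. With 6 to 10 GC B-like cells in an LDHA-deficient mouse, and few UMIs of any gamma gene, depth limits every comparison of switched cells.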

Other observations

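Single barcodes outside the B-lineage cells held much of a constant gene. A hashtag doublet with an IGHG3 contig had 1632 of the 2177 Ighg3 UMIs found outside the B-lineage cells, which themselves had 646. Another hashtag doublet with an IGHA contig had 2959 of 13371 Igha UMIs, and a hashtag doublet with an IGHM contig 3301 of 42060 Ighm UMIs. These values depend on which barcodes a hashtag rule keeps.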
